A study of Mus musculus with 12 samples.

Results

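About 1 in 5 of the probe sets on a widely used mouse expression array carried no gene name in the annotation used here, and more of them rose than fell with heat shock, where more of the named ones fell. They were taken as all probe sets of the deposited table that are not controls and have no gene symbol in that annotation. They numbered 9160 of 45037, or 20.3%. Another 34945 probe sets named 1 gene and served as the comparison, and 932 named several genes. The unnamed probe sets have no entry at all in the annotation table used here, which does not say that they lie outside genes. A fuller table may name a gene for some of them, so their number and share hold for this table only. They are given by their identifiers.

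The cells were 2 striatal lines from mouse embryos. STHdhQ7/Q7 (Q7 below) came from wild-type HdhQ7/Q7 animals, and STHdhQ111/Q111 (Q111 below) from HdhQ111/Q111 knock-in animals, whose huntingtin carries an expanded polyglutamine stretch on both alleles. Each line was sampled untreated at its growth temperature of 33 °C and after 6 h at 42 °C, with 3 arrays in each of the 4 groups, and all groups grew in medium with serum and G418. The study's title concerns the binding of the heat shock factor HSF1 in cells with expanded huntingtin. Each genotype is 1 line, so genotype and line cannot be told apart. The labels do not say whether replicates were separate cultures, so p-values measure the spread between these arrays, which may be technical.

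A probe set is a group of short probes directed at the 3′ end of a transcript, and its level combines them. Arrays of this kind carry many probe sets designed from expressed sequence tags, short reads of cDNA clones, some of which were later joined to known genes and some not. Heat shock drives strong transcription of chaperone genes through HSF1 while the RNA of many other genes falls. It is also known in mouse cells to raise RNA of the short interspersed repeats B1 and B2, which RNA polymerase III transcribes and which also lie inside many longer transcripts. The array carries control probe sets for both repeats.

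All levels are log2 values, so a difference of 1 is a doubling. Background was judged from 27 control probe sets for bacterial RNA. Their highest level on any array, 5.14, was the bound above which a level was counted as above background range. A change was called at an adjusted p under 0.05 in limma, fitted over all 45037 probe sets with Benjamini-Hochberg adjustment over all of them. Every adjusted p below comes from that two-sided test, and changes are given with the standard error (SE) of the fit. A level below the bound is no measure of amount, so where a group's mean lies below it, a change or a difference between lines is the value of the fit and not a fold of RNA.

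The chaperone gene Hspa1a, a target of HSF1, rose with the treatment in both lines. Its level went from 5.96 ± 0.37 to 11.45 ± 0.04 in Q7 cells and from 5.95 ± 0.33 to 12.43 ± 0.26 in Q111 cells (SD, n = 3 each; limma adjusted p = 6.49e-07 and 1.31e-07). At 33 °C 9 of 10 neural progenitor markers were above the bound in Q7 cells and 5 of 10 in Q111 cells. Of the markers of striatal projection neurons 4 of 8 were above it in Q7 cells and only Rgs9 and Foxp1 in Q111 cells. For neurons 4 of 7 were above it in each line, for astrocytes 3 of 6 and for fibroblasts 5 of 7. Of the other lists, 0 of 5 oligodendrocyte markers, 0 of 6 microglial markers and 0 of 5 endothelial markers were above it in Q7 cells, and 1, 1 and 0 in Q111 cells. In bulk RNA, fewer cells of a type and less RNA per cell cannot be told apart.

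Most unnamed probe sets were dim, and more of them were above background range after heat shock. In no group was the mean of 4715 of them (51.5%) above the bound, and for 2123 (23.2%) it was above in all 4 groups. Of the probe sets naming 1 gene 10383 (29.7%) were above in none and 19165 (54.8%) in all 4. In Q7 cells 28.7% of the unnamed probe sets had a group mean above the bound at 33 °C and 34.9% after heat shock. In Q111 cells the shares were 29.1% and 43.3%. The share among probe sets naming 1 gene was 62.7% and 62.3% in Q7 cells and 62.3% and 62.7% in Q111 cells. No test was made of these shares. The highest group mean lay within 0.2 above the bound for 401 unnamed probe sets and within 0.2 below it for 360.

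The single arrays showed the same shift in Q111 cells and a less even one in Q7 cells. In untreated Q7 cells 30.7%, 26.9% and 30.5% of the unnamed probe sets were above the bound on replicates 1, 2 and 3. After heat shock the shares were 28.5%, 41.2% and 34.4%. Replicate 1 of the heat-shocked Q7 cells lay within the range of the untreated arrays and replicates 2 and 3 above it. In untreated Q111 cells the shares were 31.3%, 27.5% and 30.4%, and after heat shock 41.1%, 39.3% and 49%. All 3 heat-shocked Q111 arrays were above all 3 untreated ones. On every array between 62% and 63.2% of the probe sets naming 1 gene were above the bound.

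**Figure D1:**
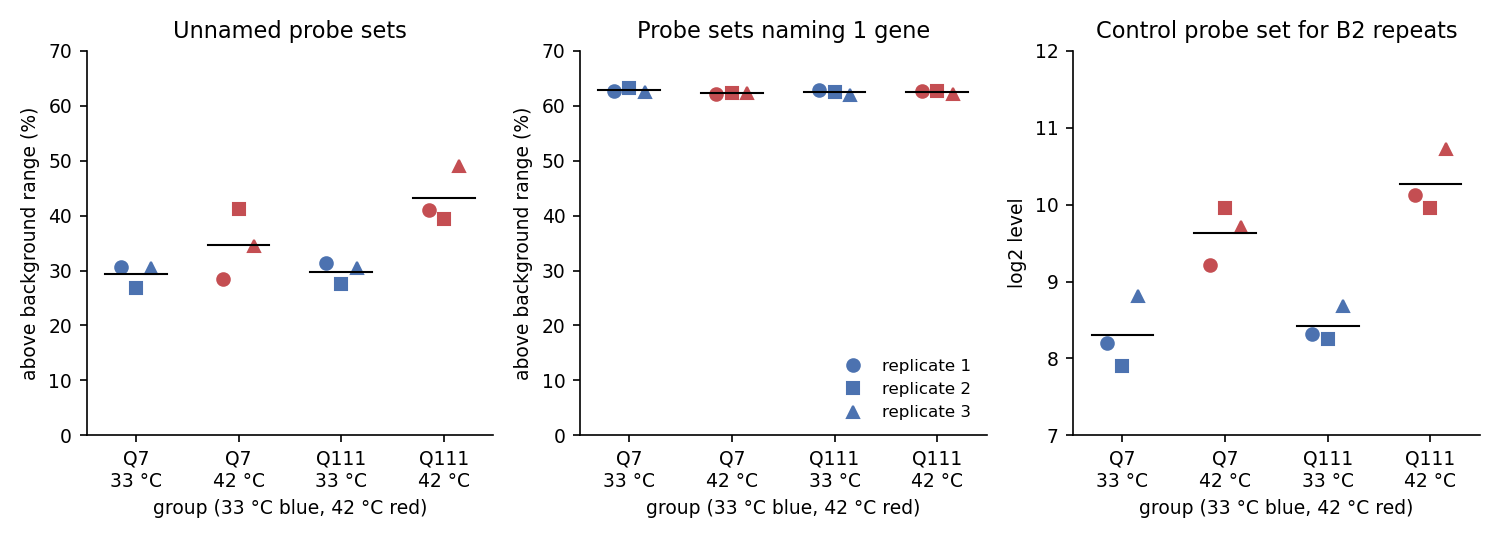
Share of probe sets above the background bound on each array for the 9160 unnamed probe sets (left) and the 34945 naming 1 gene (middle), and the log2 level of a control probe set for B2 repeats (right). Symbols are replicates 1 to 3 and bars are means of 3 arrays. The unnamed share was highest on the heat-shocked Q111 arrays, from 39.3% to 49%, while the named share stayed between 62% and 63.2%, and the B2 control was higher on every heat-shocked array than on any untreated one.

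The control probe sets for repeats were also higher after heat shock. The one of them for B2 named AFFX-MUR_b2_at read 8.2, 7.9 and 8.81 in untreated Q7 cells and 9.22, 9.96 and 9.71 after heat shock. In Q111 cells it read 8.32, 8.25 and 8.68, then 10.12, 9.96 and 10.72. The control for B1 read 10.68, 10.88 and 11.11 in untreated Q7 cells and 11.27, 12.09 and 11.97 after heat shock, and in Q111 cells 10.58, 10.29 and 10.96, then 11.75, 11.58 and 12.49. Within the heat-shocked Q7 group both were lowest on replicate 1, and within the heat-shocked Q111 group both were highest on replicate 3. Within the untreated groups the share above the bound was highest on replicate 1 in each line, while both controls were highest on replicate 3. The median level of the unnamed probe sets was also highest on replicate 3 there. It was 4.16, 4.09 and 4.3 in Q7 cells and 4.19, 4.14 and 4.28 in Q111 cells. The other B2 control, AFFX-MURINE_B2_at, read 13.55, 13.33 and 13.52 in untreated Q7 cells and 13.44, 13.35 and 13.58 in untreated Q111 cells. The gap between the 3′ and the 5′ probe sets for actin, a measure of how complete the labelled RNA is, went from 0.69, 0.38 and 0.55 to 1.35, 1.5 and 1.6 in Q7 cells and from 0.49, 1.14 and 0.53 to 0.99, 1.39 and 1.38 in Q111 cells. Their part in the share above the bound was not tested, and fits of the heat shock changes with these levels as a covariate are given with those changes.

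The probe sets that crossed the bound were mainly gains. In Q7 cells 836 unnamed probe sets went from below to above it and 264 went the other way. In Q111 cells 1603 crossed upward and 306 downward. Of these gains 627 were common to both lines, which is 75% of the gains in Q7 cells and 39.1% of those in Q111 cells. For probe sets naming 1 gene 705 gains were common, or 59.1% and 35.7%. Gains made up 12.8% of the unnamed probe sets below the bound in untreated Q7 cells, against 9.14% of those naming 1 gene. In Q111 cells these shares were 24.7% and 15%. Losses made up 10% and 5.96% of those above the bound in untreated Q7 cells, and 11.5% and 8.41% in Q111 cells. Among probe sets naming 1 gene, gains and losses were near each other, 1193 and 1304 in Q7 cells and 1976 and 1830 in Q111 cells. Of the upward crossings 202 of 836 in Q7 cells and 1196 of 1603 in Q111 cells were also called higher, which is 24.2% and 74.6%. Among probe sets naming 1 gene these shares were 38.4% and 66.6%.

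In Q7 cells 655 of the 9160 unnamed probe sets rose with heat shock (7.15%) and 496 fell (5.41%). Over all 45037 probe sets 10% were called higher and 14.1% lower, so both shares were below those of the whole array. Among probe sets naming 1 gene 3698 rose (10.6%) and 5788 fell (16.6%). The median change of the unnamed probe sets was 0.15 and 64.9% of them had a positive change, against a median of -0.02 and 48.3% for those naming 1 gene. The fitted change was a rise of at least 1 for 920 unnamed probe sets (10%) and a fall of at least 1 for 346 (3.78%). Among those naming 1 gene the shares were 6.82% and 10.9%. These counts include changes that were not called and levels below the bound. The count of calls rested on several arrays: 696 were called without replicate 2 at 33 °C, 719 without heat-shocked replicate 3 and 762 without heat-shocked replicate 2. In these fits the calls over all probe sets also fell, from 10864 to 7344, 7643 and 7902. Without heat-shocked replicate 1, the array with the low share above background, 1544 unnamed probe sets were called and 1092 of them were higher. That fit called 10676 of all probe sets.

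In Q111 cells 2737 unnamed probe sets rose (29.9%) and 774 fell (8.45%). Over all probe sets 19.8% were called higher and 22.3% lower, so here more of the unnamed ones rose, and fewer fell, than on the whole array. Of those naming 1 gene 5915 rose (16.9%) and 9124 fell (26.1%). The median change was 0.38 with 72% positive, against -0.04 and 47.4%. A fitted rise of at least 1, called or not and at any level, was found for 2314 unnamed probe sets (25.3%). A fitted fall of at least 1 was found for 503 (5.49%). Among those naming 1 gene the shares were 9.25% and 17.6%. Without replicate 2 at 33 °C 2320 unnamed probe sets were called, 1683 of them higher. Over all probe sets that fit called 14563, against 18952 with all arrays.

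**Figure D2:**
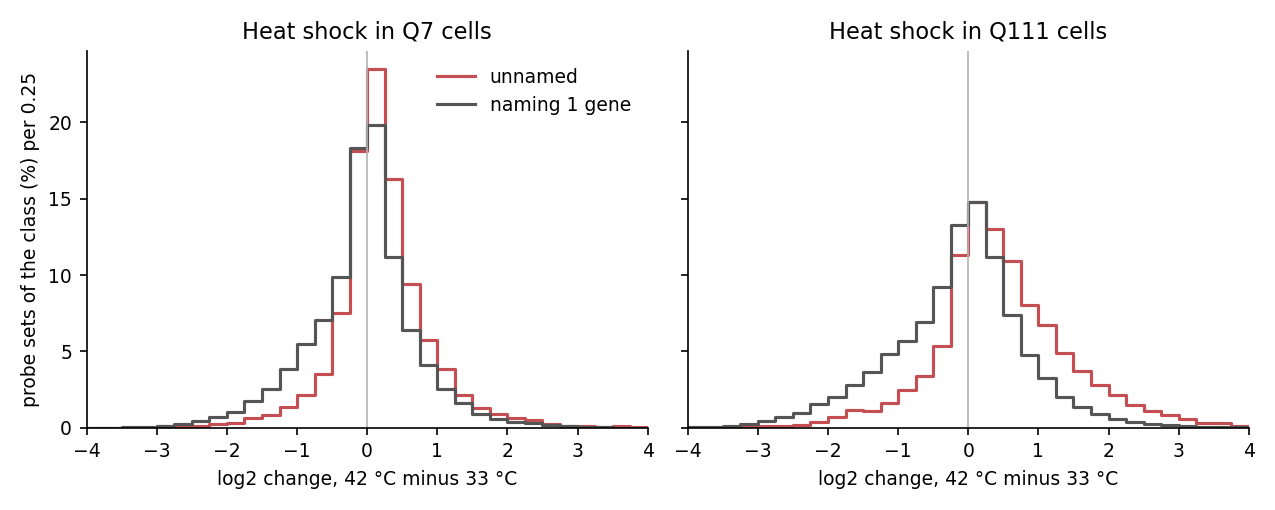
Distribution of the log2 change with heat shock in each line, as the percentage of each class of probe sets per bin of 0.25. The curve of the unnamed probe sets lies to the right of that of probe sets naming 1 gene, with medians of 0.15 against -0.02 in Q7 cells and 0.38 against -0.04 in Q111 cells.

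These medians kept their sign in the fits that changed scaling, weights, filter or the set of arrays, and turned when the level of the repeat controls entered as a covariate. With the mean level of the B1 and B2 controls in the model, the median change of the unnamed probe sets was -0.17 in Q7 cells and -0.06 in Q111 cells, and 919 (10%) and 171 (1.87%) were called. Of the 919 in Q7 cells 326 were higher and 593 lower, so the balance of rises over falls turned there. Of the 171 in Q111 cells 92 were higher and 79 lower. The same fit called 11.2% of all probe sets in Q7 cells and 2.73% in Q111 cells. With the actin gap as a covariate the medians were 0.04 and 0.33, and 75 (0.819%) and 856 (9.34%) were called. That fit called 1.26% and 16.3% of all probe sets, against 24.1% and 42.1% with no covariate, so the loss of calls was not limited to the unnamed ones. Both covariates themselves differ between the treatment groups. Each repeat control was higher on all heat-shocked arrays of a line than on its untreated arrays, and so was the actin gap in Q7 cells. There the groups share no covariate level, and the fits extend slopes within groups of 3 arrays. The medians and counts of these fits therefore cannot tell the covariate and the treatment apart.

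More probe sets changed alike than oppositely in both lines. Called higher in both lines were 438 unnamed probe sets, which is 66.9% of those that rose in Q7 cells and 16% of those that rose in Q111 cells. Over all probe sets 6.53% were called higher in both, against 4.78% of the unnamed ones. Called lower in both were 373, or 75.2% and 48.2% of those that fell in the lines, which is 4.07% of the unnamed probe sets against 11.1% of all. Of the 655 unnamed probe sets that rose in Q7 cells 11 were called lower in Q111 cells, and 0 were called the other way round. Among probe sets naming 1 gene these numbers were 88 of 3698 and 37.

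The neighbouring identifiers 1427854_x_at and 1427853_a_at gave the largest rise seen in both lines. 1427854_x_at read 8.77, 8.85 and 8.83 in untreated Q7 cells and 13.03, 12.9 and 12.95 after heat shock. In Q111 cells it read 8.24, 8.47 and 7.97, then 12.91, 12.82 and 12.71. The treated and untreated arrays were far apart in each line, and replicates lay close together. The changes were 4.14 (SE 0.15, limma adjusted p = 5.19e-07) and 4.59 (SE 0.15, adjusted p = 8.48e-08). 1427853_a_at rose from 9.33 ± 0.12 to 13.22 ± 0.03 in Q7 cells and from 8.77 ± 0.46 to 13.12 ± 0.06 in Q111 cells (SD, n = 3). Whether the pair reports 1 transcript is not known here, so they are not counted as independent.

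1442346_at rose in both lines as well. It read 3.81, 3.32 and 4.41 in untreated Q7 cells, below the background bound, and 7.56, 7.51 and 7.43 after heat shock. In Q111 cells it read 4.41, 3.99 and 3.69, then 7.55, 7.67 and 8.07. It thus went from background range to well above it in both lines, with fitted changes of 3.66 (SE 0.27, adjusted p = 1.3e-05) and 3.74 (SE 0.27, adjusted p = 9.03e-06) that start from levels below the bound. The level of 1443912_at, with the largest rise of all named for Q7 cells, went from 5.73, 6.06 and 6.1 to 10.05, 10.08 and 10.23 there. In Q111 cells it went from 5.83, 5.8 and 6.33 to 9.45, 10.16 and 9.21. Its changes were 4.16 and 3.62 (SE 0.24 each, adjusted p = 3.69e-06 and 5.72e-06), and the difference of these changes, -0.54, did not pass (SE 0.34, adjusted p = 0.465).

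Other probe sets with large rises in Q7 cells reached lower levels in heat-shocked Q111 cells. 1445678_at read 4.92, 5.26 and 5.1 untreated and 9.05, 9.02 and 9.37 after heat shock in Q7 cells. In Q111 cells it read 2.31, 2.8 and 2.72, then 4.8, 5.5 and 4.03, so the treated Q111 arrays were about where the untreated Q7 arrays were. Only the heat-shocked Q7 mean was above the bound, and both Q111 means were below it. The fitted difference of the changes was -1.88 (SE 0.43, adjusted p = 0.0474), and its size is not a measure of amount. 1429731_at rose from 5.02 ± 0.37 to 9.04 ± 0.18 in Q7 cells and from 5.1 ± 0.19 to 8.01 ± 0.53 in Q111 cells, and 1441219_at from 6.08 ± 0.49 to 9.91 ± 0.06 and from 5.31 ± 0.2 to 7.52 ± 0.64 (SD, n = 3). 1458612_at rose from 3.48 ± 0.14 to 7.37 ± 0.38 and from 3.29 ± 0.3 to 5.7 ± 1.2. For these 3 the difference of the changes did not pass (adjusted p = 0.154, 0.0803 and 0.285). Their levels after heat shock were lower in Q111 than in Q7 cells by the test. These differences were -1.03, -2.39 and -1.67 (adjusted p = 0.0239, 0.000498 and 0.0336).

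The largest rises in Q111 cells were less even across arrays. 1457657_at read 4.97, 3.86 and 8.19 on untreated Q111 replicates 1, 2 and 3 and 10.75, 10.41 and 11.95 after heat shock, and in Q7 cells 4.15, 3.78 and 7.77, then 7.54, 10.39 and 9. Replicate 3 at 33 °C was far above the others in both lines, and in Q7 cells it overlapped the treated arrays. The change in Q111 cells was 5.36 with an SE of 1.24 (adjusted p = 0.00591), and in Q7 cells 3.74 (adjusted p = 0.0489), a call that was lost without heat-shocked replicate 2 or 3 or untreated replicate 1 or 2 (adjusted p between 0.116 and 0.181). 1456693_at, 1458243_at and 1447410_at had the same form. 1456693_at read 5.23, 4.42 and 9.53, then 10.66, 10.24 and 12.18 in Q111 cells (change 4.63, SE 1.53, adjusted p = 0.0312), and that of 1447410_at was 4.42 (SE 1.41, adjusted p = 0.027). Both calls were lost when heat-shocked replicate 3 or untreated replicate 1 or 2 was left out, and that of 1456693_at also without heat-shocked replicate 1 (adjusted p between 0.055 and 0.119).

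Probe sets of this form, which was defined after seeing the data, made up a larger share of the unnamed than of the named ones. On replicate 3 at 33 °C 275 unnamed ones (3%) were at least 1 above both other replicates in both lines, against 207 of those naming 1 gene (0.592%). Of the 275 the number called higher with heat shock was 9 in Q7 cells (3.27%) and 172 in Q111 cells (62.5%), with median changes of 1.1 and 2.36. Of the 207 it was 3 (1.45%) and 122 (58.9%), with medians of 0.95 and 2.14. A high untreated replicate raises the untreated mean and the spread, so these calls and medians depend in part on how the sets were selected. The AFFX-MUR_b2_at control was likewise highest on replicate 3 of the untreated arrays of each line, 8.81 and 8.68. When replicate 3 of both untreated groups was left out, 976 unnamed probe sets were called in Q7 cells and 2834 in Q111 cells, 2099 of the latter higher. Over all probe sets that fit called 8882 and 15556.

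The other large rises in Q111 cells varied in Q7 cells. 1456319_at read 5.86, 5.38 and 7.44 in untreated Q111 cells and 11.05, 10.88 and 11.29 after heat shock. In Q7 cells it read 5.72, 5.54 and 6.99, then 7.47, 11.36 and 10.3, where replicate 1 was by far the lowest of the treated arrays. Its changes were 4.85 (SE 0.85, adjusted p = 0.00124) and 3.63 (SE 0.85, adjusted p = 0.00945). 1445047_at read 3.45, 3.7 and 4.77, then 8.83, 8.66 and 7.84 in Q111 cells and 3.39, 3.63 and 4.75, then 4.38, 9.11 and 7.5 in Q7 cells. 1438989_s_at rose in Q111 cells from 4.46 ± 0.36 to 8.82 ± 1.05 (SD, n = 3; adjusted p = 0.00178), while in Q7 cells it read 4.55, 5.68 and 4.64, then 4.48, 8.32 and 6.85 (adjusted p = 0.192). For both of these, heat-shocked Q7 replicate 1 was no higher than the highest untreated Q7 array.

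The largest falls that both lines shared are given first. 1437979_at read 6.84, 7.39 and 7.3 in untreated Q7 cells and 4.59, 3.1 and 3.95 after heat shock, and in Q111 cells 6.89, 7.38 and 7.23, then 3.79, 3.59 and 2.62. It fell by 3.29 (SE 0.38, adjusted p = 0.000152) and by 3.84 (SE 0.38, adjusted p = 4.44e-05), from above the bound to below it in both lines. 1417435_at started higher, at 10.06, 9.74 and 9.7 in Q7 cells and 9.38, 9.52 and 9.37 in Q111 cells. After heat shock it read 7.26, 6.9 and 6.81 and 6.12, 5.63 and 5.85, so it stayed above the bound on all arrays. It fell by 2.85 and by 3.56 (SE 0.18 each, adjusted p = 4.6e-06 and 9.74e-07), and the difference of these changes did not pass (-0.71, SE 0.25, adjusted p = 0.174).

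The others lower in both lines reached the region of the bound. 1444236_at went from 8.18 ± 0.64 to 5.26 ± 0.33 in Q7 cells and from 7.61 ± 0.33 to 4.21 ± 0.41 in Q111 cells. 1418445_at went from 7.58 ± 0.51 to 4.37 ± 0.12 and from 7.25 ± 0.3 to 4.42 ± 0.14, and 1429546_at from 6.81 ± 0.4 to 4.02 ± 0.36 and from 6.95 ± 0.08 to 3.83 ± 0.31 (SD, n = 3). 1456990_at fell to 3.2 ± 0.07 from 5.81 ± 0.32 in Q7 cells and to 2.85 ± 0.06 from 6.32 ± 0.09 in Q111 cells. These falls end below the bound or near it, so they may be larger than given. Among the large falls in Q111 cells, 1438930_s_at and 1454644_at fell by 3.43 and 3.41 there and by 1.53 and 1.87 in Q7 cells. The differences of these changes were -1.9 (adjusted p = 0.0503) and -1.54 (adjusted p = 0.159).

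The 2 largest falls in Q7 cells were neither tight nor called in Q111 cells. 1433438_x_at read 7.5, 7.33 and 10.34 in untreated Q7 cells and 4.13, 3.74 and 4.05 after heat shock, and 1456182_x_at read 8.25, 8.33 and 11.33, then 5.36, 4.87 and 5.45. Untreated replicate 3 was high for both, and the treated arrays were below all untreated ones all the same. They fell by 4.41 (SE 0.67, adjusted p = 0.000816) and by 4.07 (SE 0.7, adjusted p = 0.00172). In Q111 cells they read 3.61, 5.23 and 4.05, then 2.73, 2.91 and 2.62, and 4.9, 6.41 and 5.2, then 4.05, 4.65 and 3.87, changes that did not pass (adjusted p = 0.0852 and 0.152). The fitted changes there were -1.54 (SE 0.67) and -1.32 (SE 0.7), and the arrays of the 2 temperatures did not overlap. Their untreated Q111 means were 4.3, below the bound, and 5.5, near it, so the size of these falls is not a measure of amount. The differences of the changes did not pass (2.87, SE 0.95, adjusted p = 0.148, and 2.76, SE 1, adjusted p = 0.183). Probe sets whose identifiers end in _x_at hold probes that may also bind other transcripts. 1447223_at fell in both lines, from 7.56, 7.71 and 8.21 to 4.74, 4.73 and 5.04 in Q7 cells and from 6.11, 6.39 and 6.24 to 4.99, 5.1 and 4.83 in Q111 cells. The treated arrays of both lines lay below the bound, and the lines differed in where they started. The test of the difference passed (1.72, SE 0.26, adjusted p = 0.0105).

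**Figure D3:**
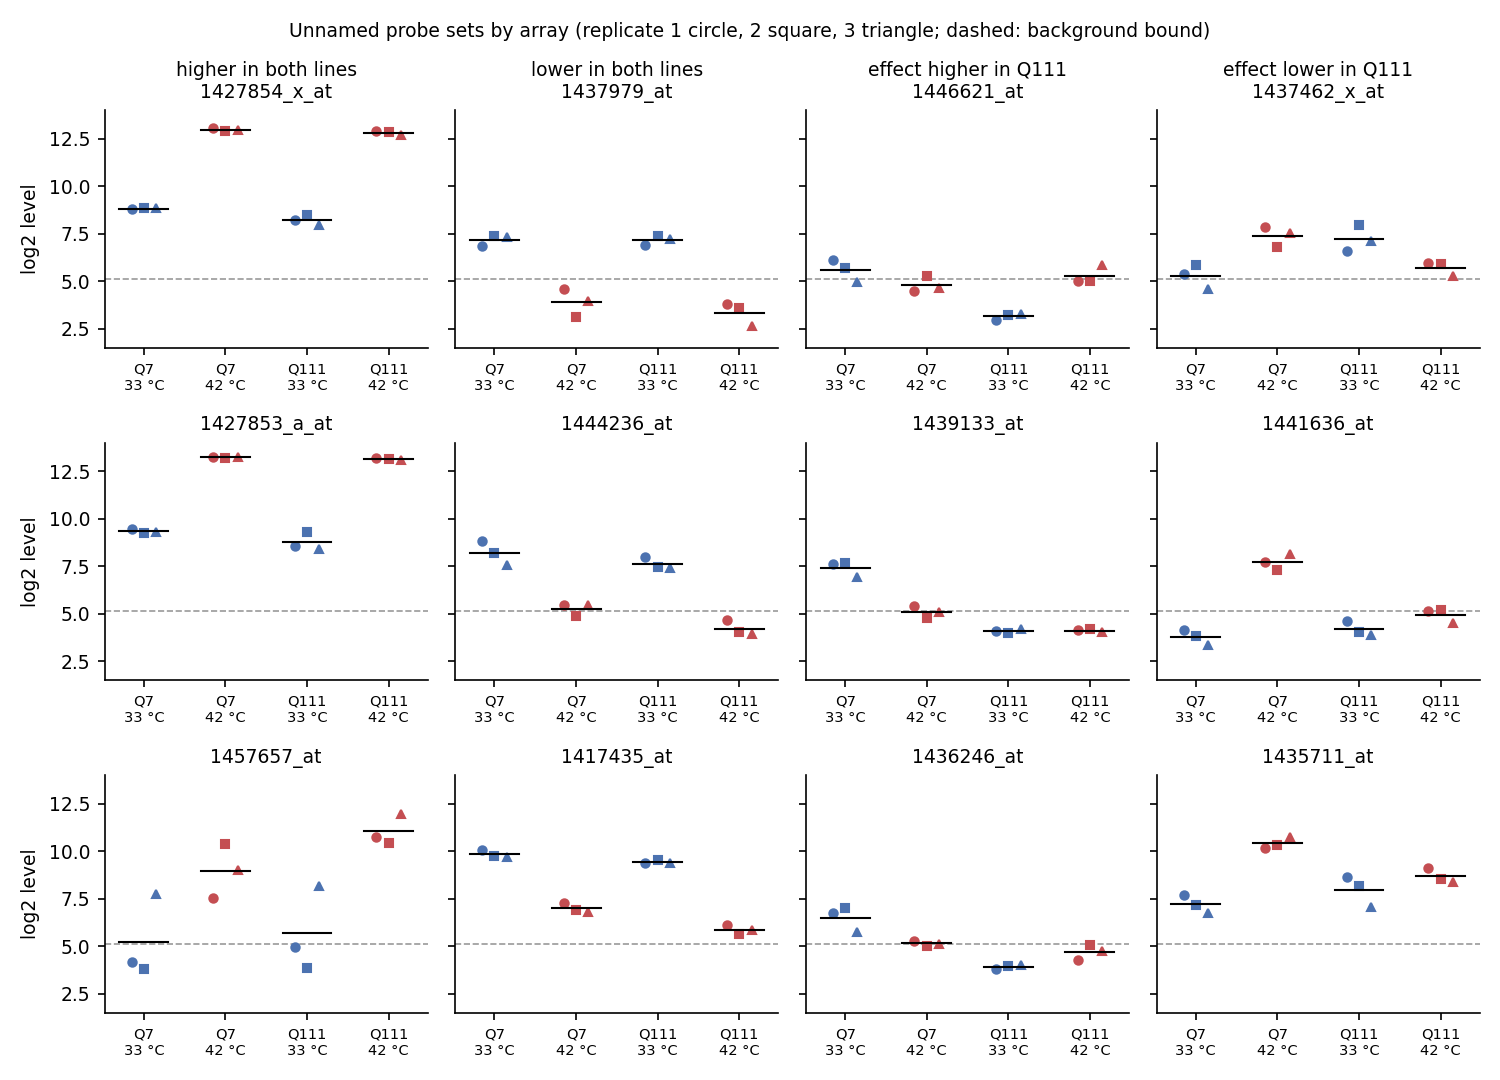
Log2 level of 12 unnamed probe sets on each array, 3 for each of 4 patterns, with group means as bars and the background bound of 5.14 as a dashed line. Blue is 33 °C and red 42 °C. 1427854_x_at and 1427853_a_at lie tightly near 13 after heat shock in both lines, while 1457657_at shows replicate 3 (triangles) at 33 °C far above the other replicates in both lines.

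The heat shock effect differed between the lines for 103 unnamed probe sets. For 22 of them (0.24%) the change was higher in Q111 cells and for 81 (0.884%) lower. Over all probe sets these shares were 0.611% and 2.07%, so fewer of the unnamed ones were called in each direction. The median of the difference, Q111 minus Q7, was 0.26, with 71.4% positive, against -0.01 and 49% for probe sets naming 1 gene. The large count of rises in Q111 cells is thus matched by few calls of a difference from Q7 cells. Over all probe sets too only 1209 differences were called, against 18952 changes in Q111 cells. The median SE of the unnamed probe sets was 0.37 for the difference and 0.26 for heat shock in a line, so a difference was harder to call. The unnamed count of 103 went down to 27 without heat-shocked Q7 replicate 3, to 28 without replicate 1 and up to 161 without replicate 2. Over all probe sets the count of 1209 became 280, 386 and 1340 in these fits. The unnamed count was 59, 32 and 48 without untreated Q7 replicate 1, 2 or 3, and 54, 34 and 54 without untreated Q111 replicate 1, 2 or 3. The count over all probe sets was then 706, 391 and 544, and 569, 446 and 542.

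The probe sets with the largest differences took several forms. 1437462_x_at moved oppositely: it read 5.37, 5.83 and 4.57, then 7.84, 6.81 and 7.53 in Q7 cells and 6.58, 7.95 and 7.13, then 5.95, 5.92 and 5.28 in Q111 cells. It rose by 2.14 in the former (SE 0.41, adjusted p = 0.00328) and fell by 1.5 in the latter (SE 0.41, adjusted p = 0.0139), and the arrays of the 2 temperatures did not overlap in either line. The difference was -3.64 (SE 0.58, adjusted p = 0.0128). 1441636_at rose in Q7 cells, from 4.12, 3.83 and 3.33 to 7.73, 7.29 and 8.14, and in Q111 cells read 4.62, 4.06 and 3.89, then 5.14, 5.17 and 4.52 (difference -3.21, SE 0.42, adjusted p = 0.00542).

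1437302_at and 1435711_at also rose in Q7 cells, where the former went from 6.36, 5.85 and 6.17 to 9.13, 8.96 and 9, and the latter from 7.69, 7.14 and 6.76 to 10.16, 10.31 and 10.76. In Q111 cells they started higher, at 7.49 ± 0.46 and 7.95 ± 0.81, and reached 7.91 ± 0.47 and 8.67 ± 0.39 with treatment (SD, n = 3), changes that did not pass (adjusted p = 0.228 and 0.15). Their differences were -2.48 (SE 0.38, adjusted p = 0.0106) and -2.49 (SE 0.54, adjusted p = 0.0387). 1445268_at fell in Q111 cells from 5.36, 6.5 and 7.21 to 4.36, 3.61 and 3.68, and in Q7 cells all 6 arrays were in background range, between 3.47 and 3.68 (difference -2.44, SE 0.53, adjusted p = 0.0383). 1455831_at fell in Q111 cells from 8.93 ± 0.72 to 7.24 ± 0.61 and stood at 8.19 ± 0.47 and 8.92 ± 0.04 in Q7 cells (difference -2.42, SE 0.54, adjusted p = 0.0428).

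In the other direction, 1446621_at read 6.14, 5.67 and 4.94, then 4.48, 5.28 and 4.64 in Q7 cells, where its change did not pass (adjusted p = 0.116). In Q111 cells it rose from 2.96, 3.22 and 3.29 to 5.03, 5 and 5.83 (difference 2.91, SE 0.47, adjusted p = 0.0127). The neighbouring identifiers 1439133_at and 1439134_s_at behaved alike. 1439133_at fell in Q7 cells from 7.63, 7.69 and 6.94 to 5.4, 4.78 and 5.08 and stood at 4.11, 4.01 and 4.17, then 4.12, 4.17 and 4.05 in Q111 cells, below the bound throughout, where a fall cannot be seen (difference 2.34, SE 0.3, adjusted p = 0.00542). 1439134_s_at fell from 8.1 ± 0.34 to 6.41 ± 0.22 and stood at 5.48 ± 0.15 and 5.64 ± 0.11 (difference 1.85, SE 0.27, adjusted p = 0.00817).

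1436246_at and 1436003_at fell in Q7 cells from 6.5 ± 0.66 to 5.15 ± 0.14 and from 6.86 ± 0.28 to 4.19 ± 0.77, and in Q111 cells all their group means were below the bound (SD, n = 3). Their differences were 2.12 (SE 0.42, adjusted p = 0.0279) and 2.06 (SE 0.46, adjusted p = 0.0416). 1420063_at rose in both lines, from 4.33, 4.12 and 4.79 to 5.87, 6.63 and 6.08 in Q7 cells and from 4.6, 4.6 and 5 to 8.32, 8.23 and 8.85 in Q111 cells, with no overlap in either. The rise was larger in Q111 cells (difference 1.95, SE 0.36, adjusted p = 0.0213). For 5 of these 12 probe sets both means of a line were below the bound, so the difference has no size in amounts of RNA. They were those of 1439133_at, 1436246_at and 1436003_at in Q111 cells and of 1445268_at in Q7 cells, where a fall cannot be seen. The Q111 means of 1441636_at were below it too, but in Q7 cells it rose, from 3.76, also below the bound, to 7.72. Its Q111 mean after heat shock was 4.94, and a rise above the bound could have been seen there. Of the 12 differences, those of 1446621_at, 1439133_at, 1439134_s_at, 1441636_at, 1437462_x_at and 1437302_at passed with any single array left out, and each of the other 6 was lost without at least 4 arrays in turn.

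At 33 °C the lines differed for 226 unnamed probe sets, 107 higher in Q111 cells (1.17%) and 119 lower (1.3%). Over all probe sets the shares were 3.16% and 3.62%, so both were below those of the whole array, and the median difference was 0.02. Replicates of the same number deviated together across the lines at this temperature. With the replicate number as a block in a fit of these 6 arrays, 629 were called (6.87%), 317 higher and 312 lower. The same fit called 13.3% of all probe sets, against 6.78% with no block, so the count rose on the whole array. Without untreated Q7 replicate 2 147 unnamed probe sets were called, and 2163 of all probe sets against 3054 with all arrays.

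1457769_at was well above the bound on every array and higher in Q111 cells at both temperatures. It read 8.52, 8.19 and 8.52 in untreated Q7 cells and 11.76, 11.59 and 11.7 in untreated Q111 cells. After heat shock it read 8.57, 7.34 and 7.71 and 11.62, 11.69 and 11.67, and so did not change with heat by the test in either line (adjusted p = 0.164 and 0.957). It was higher in Q111 cells by 3.27 at 33 °C and by 3.79 after heat shock (SE 0.26 each, adjusted p = 1.17e-05 and 6.31e-06). 1433741_at differed at both temperatures, with 4.31 ± 0.31 and 4.59 ± 0.23 in Q7 cells, below the bound, and 7.7 ± 0.49 and 7.43 ± 0.59 in Q111 cells (SD, n = 3). 1436646_at read 2.28, 2.52 and 2.27 in untreated Q7 cells and 6.81, 6.74 and 5.29 in untreated Q111 cells, where it fell with heat shock to 4.11, 4.39 and 4.19. 1431398_at and 1448136_at were higher in untreated Q111 cells by 3.04 and 2.96 (adjusted p = 3.27e-06 and 0.000187), and 1450042_at by 3.64 with an uneven replicate, at 4.23, 7.12 and 7.39 (adjusted p = 0.0041).

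Of those lower in Q111 cells, 1438441_at read 10.08, 10.31 and 9.84 in untreated Q7 cells and 5.52, 5.12 and 5.45 in untreated Q111 cells, a difference of -4.71 (SE 0.31, adjusted p = 3e-06). It rose in Q111 cells with heat shock to 7.79, 8 and 6.61 (change 2.1, SE 0.31, adjusted p = 0.000406). 1421134_at and 1457954_at had the same order: 10.43 ± 0.36 and 9.17 ± 0.3 in untreated Q7 cells, 6.04 ± 0.62 and 5.46 ± 0.38 in untreated Q111 cells and 7.96 ± 0.94 and 6.89 ± 0.09 after heat shock (SD, n = 3). 1455298_at was above the bound in Q7 cells, at 6.48 ± 0.49, and at 2.98 ± 0.41 in Q111 cells. 1433438_x_at and 1456182_x_at, given above for their fall in Q7 cells, were lower in untreated Q111 cells by differences of -4.09 and -3.8 (adjusted p = 0.00272 and 0.00601), with Q7 replicate 3 high for both.

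After heat shock 409 unnamed probe sets were higher in Q111 than in Q7 cells (4.47%) and 403 lower (4.4%). Over all probe sets the shares were 4.73% and 10.7%, and among those naming 1 gene 4.75% and 12.4%. The higher share was thus near that of the whole array and the lower share below it, with a median difference of 0.25. The counts turned on the heat-shocked Q7 arrays: without replicate 1 367 were called, 130 of them higher, without replicate 3 also 367, and without replicate 2 1467, of which 1026 were higher. Over all probe sets these fits called 3980, 3935 and 8079, against 6932 with all arrays.

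Among these, 1443279_at read 4.1, 5.89 and 4.63 in heat-shocked Q7 cells and 7.78, 7.06 and 9.6 in heat-shocked Q111 cells (higher by 3.27, SE 0.61, adjusted p = 0.00467). 1448931_at fell in both lines and remained higher in Q111 cells, where its treated arrays read 8.52, 7.98 and 8.23 against 4.92, 5.28 and 4.99 (higher by 3.18, SE 0.37, adjusted p = 0.000239). Lower in Q111 cells were 1445678_at, described above, by a difference of -4.37 (SE 0.31, adjusted p = 8.53e-06), and 1441821_at, which read 7.23, 6.85 and 7.13 in heat-shocked Q7 cells and 2.88, 3.27 and 3.15 in heat-shocked Q111 cells. 1455918_at stood at 8.1 ± 0.44 and 4.68 ± 0.74 and 1418493_a_at at 8.61 ± 0.21 and 5.29 ± 0.41 (SD, n = 3).

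The contrast with named probe sets held at matched level over much of the range. Among probe sets with a mean level from 4 to 5, 38.9% of 2327 unnamed and 22% of 5051 naming 1 gene rose in Q111 cells. From 6 to 7 these shares were 33.7% of 781 and 13% of 3427, and 16.3% and 43.6% fell. In Q7 cells 6.1% of the unnamed and 4.99% of the named ones rose from 4 to 5, and 14.7% and 10.4% from 6 to 7. The unnamed share that rose there was the smaller from 5 to 6, at 8.16% against 8.78%. It was also the smaller from 11 to 12, at 14.8% against 20.5%, and over 12, at 11% against 17.8%. In Q111 cells the median change of the unnamed probe sets was above that of the named ones in each bin up to a level of 9 and below it in each bin above 9. For 9 to 10, with 142 unnamed probe sets, the medians were -0.41 and -0.35. Only 416 unnamed probe sets had a mean above 9.

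**Figure D4:**
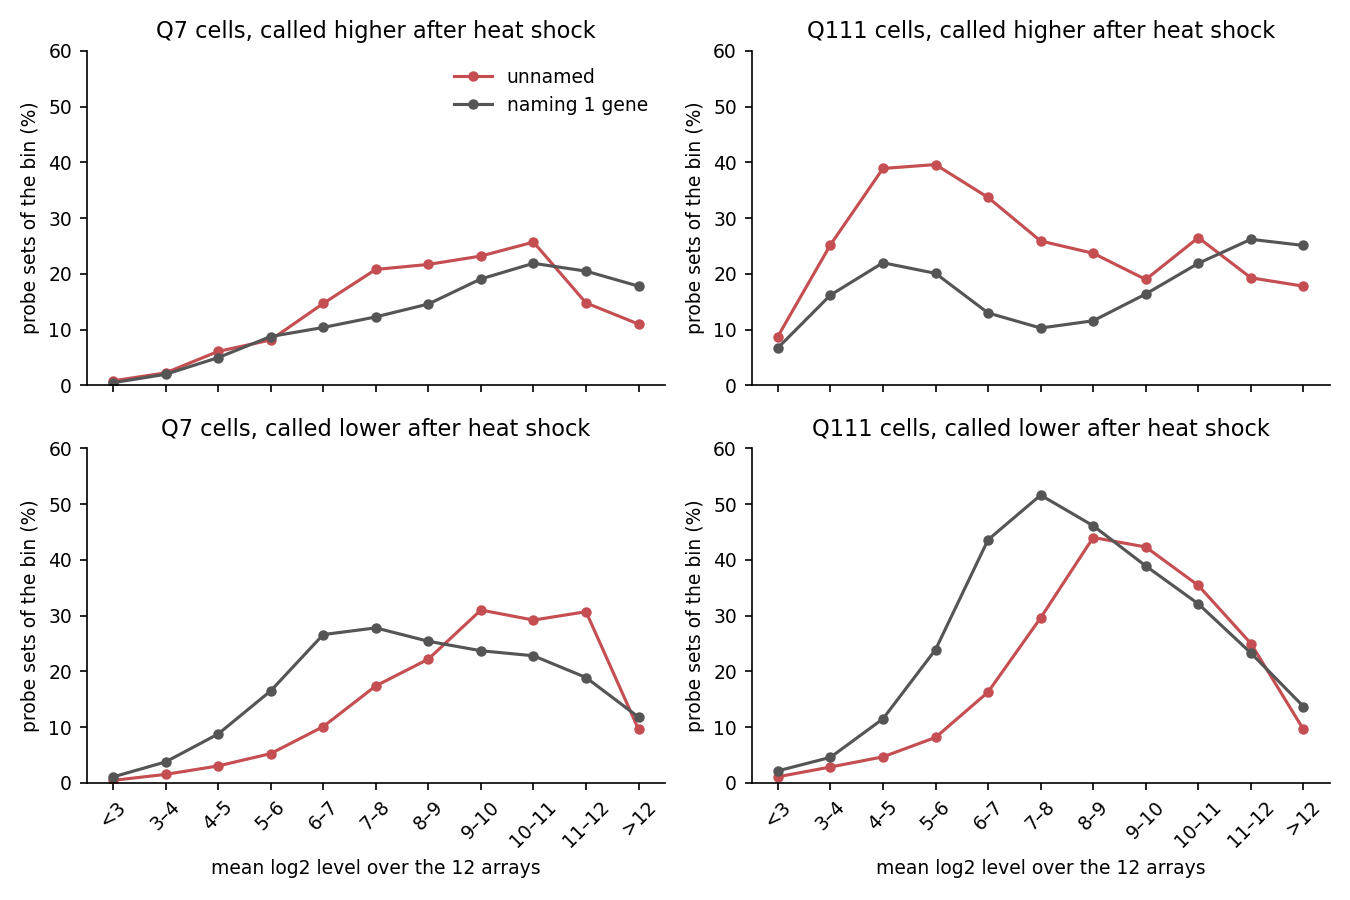
Share of probe sets called higher (top) and lower (bottom) after heat shock in Q7 (left) and Q111 (right) cells, in bins of the mean log2 level over all 12 arrays. In Q111 cells the share called higher was larger for the unnamed probe sets in each bin up to 10 to 11, with 38.9% against 22% for levels from 4 to 5, and the share called lower was smaller in each bin up to 8 to 9.

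Of the 2737 rises in Q111 cells 2614 were of identifiers ending in _at, the plain form that 8600 of the unnamed probe sets have. Of these 30.4% rose and 7.62% fell. The 196 ending in _a_at, which marks probe sets that bind several transcripts of a gene, had a median level of 7.25, and 12.2% of them rose while 31.1% fell, with a median change of -0.15. Those naming 1 gene with this ending were near them, at 16.9% and 27.9% with a median of -0.09. Of the 252 ending in _x_at 28.2% rose, and of the 112 ending in _s_at, which marks probes shared by several transcripts, 25%, against 15.8% and 15% of those naming 1 gene. For the plain ending 17.2% of those naming 1 gene rose and 25.4% fell.

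Unnamed probe sets were concentrated in certain ranges of identifier numbers. In blocks of 1000 numbers with at least 30% unnamed lay 6181 of them. Their median change in Q111 cells was 0.5, and 33.4% rose. The 6693 probe sets naming 1 gene in the same blocks had a median of 0.1 and 20.1% rose. In the other blocks the 2979 unnamed probe sets had a median of 0.14 with 22.6% higher, and the 28252 naming 1 gene -0.09 with 16.2%. Unnamed probe sets were thus above named ones in both kinds of block, and each class was higher in the blocks rich in unnamed ones.

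In Q111 cells the shares of named probe sets of long noncoding RNA genes, transcripts that encode no protein, were near those of the unnamed ones. There 29.4% of 1679 such probe sets rose and 6.97% fell, with a median of 0.29, against 29.9% and 8.45% of the unnamed ones. In Q7 cells 12.1% of them rose and 4.47% fell, against 7.15% and 5.41%. The 208 probe sets of pseudogenes had 28.4% higher and 11.5% lower in Q111 cells. For the 32752 of protein-coding genes the shares were 16.2% and 27.3%. No test was made between these classes, and they do not show what the unnamed probe sets detect.

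The spread among replicates was larger for the unnamed probe sets. The median SD over the 3 arrays of heat-shocked Q111 cells, among probe sets above the bound, was 0.53 for the unnamed and 0.34 for those naming 1 gene. In untreated Q7 cells these were 0.3 and 0.23. The 6 brightest unnamed probe sets were flat. 1416624_a_at stood at 14.09 ± 0.05, 14.12 ± 0.02, 14.08 ± 0.06 and 14.1 ± 0.01 in Q7 cells at 33 °C and after heat shock and in Q111 cells likewise (SD, n = 3). 1452701_x_at, 1438986_x_at, 1437510_x_at, 1437610_x_at and 1455319_x_at had group means between 13.61 and 13.97, and no contrast passed for any of the 6. Levels near 14 are close to the top of the scale, where a change may not show.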

How the data were processed

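RNA of the 12 samples was hybridised to 1-colour Affymetrix mouse arrays. The authors deposited 1 log2 value for each probe set and array, which RMA produced, per the submitters' processing notes. Its version and the chip definition file were not given in the labels. RMA sets quantiles nearly equal between arrays, so a shift common to all probe sets cannot be seen. Arrays were used as deposited (largest quantile gap 0.49). Of 45101 probe sets 64 controls were left out of the tests. Gene symbols came from an annotation of the array platform; 34741 of the probe sets naming 1 gene were matched by gene identifier to RefSeq for the kind of gene and 204 were not.

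limma 3.58.1 (R 4.3.3) fitted 4 group means to all arrays, with 8 residual and 3.01 prior degrees of freedom, and 5 contrasts; the code was checked on simulated data. The members, lists and tests were chosen with earlier results of these data known. Probe sets described singly were those called with the largest changes, arrays of the groups not overlapping (for the difference, in at least 1 line) and the higher mean above the bound: 8 per direction for heat shock in each line, 6 for the difference and for untreated Q111 against Q7 cells, and 4 for the same comparison of treated cells. To these were added the 5 per direction with the largest smaller change among those called in both lines, whether or not their arrays overlapped, and the 6 brightest. A larger number of arrays would narrow the errors. No array was a copy of another of its group: between 4 and 14 of the 9160 unnamed probe sets had exactly equal values in a pair.

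Replicate numbers come from the labels. Deviations of same-numbered arrays correlated at 0.574, 0.422 and 0.616 between the lines at 33 °C, so the numbers pair these samples. Between the Q111 groups they correlated at 0.118, 0.257 and 0.304, a pairing that is weak at most. There untreated replicate 2 and heat-shocked replicate 1 correlated at 0.197. The labels do not say what a number marks. The counts and p-values of the report come from the fit without a block, and the blocked counts are given beside them or with the alternatives. The numbers did not pair the Q7 groups (0.118, -0.393 and -0.113) or the heat-shocked groups (0.357, -0.511 and -0.269).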

Additional observations from a re-analysis of the deposited data

Results flagged for a closer look

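The test of the difference between the lines' heat shock effects passed for 103 unnamed probe sets. Among those described singly, the difference, Q111 minus Q7, was positive for 1446621_at (2.91), 1439133_at (2.34), 1436246_at (2.12), 1436003_at (2.06), 1420063_at (1.95) and 1439134_s_at (1.85). It was negative for 1437462_x_at (-3.64), 1441636_at (-3.21), 1435711_at (-2.49), 1437302_at (-2.48), 1445268_at (-2.44) and 1455831_at (-2.42).

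The repeat control probe sets lie outside the tests and were higher after heat shock than in untreated cells. The B1 control was higher by 0.89 in Q7 and 1.33 in Q111 cells. AFFX-MUR_b2_at was higher by 1.33 and 1.85, and AFFX-MURINE_B2_at, already near the top of the scale, by 0.29 and 0.42.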

How the results depend on the processing

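The 1151 calls of unnamed probe sets for heat shock in Q7 cells became 2588 with array weights, 75 with the actin gap as a covariate and 577 at an adjusted p under 0.01. Single arrays left out gave 696 to 1544. The 3511 in Q111 cells became 856 with the actin gap, 171 with the repeat covariate and 1660 at an adjusted p under 0.01, and single arrays left out gave 2320 to 3671. The 103 calls of a difference became 462 with array weights, 22 with the actin gap, 10 at an adjusted p under 0.01 and 17 without replicate 3 of both untreated groups, and 27 to 161 with single arrays left out. The 226 at 33 °C became 350 with array weights, 121 at an adjusted p under 0.01 and 629 with the replicate block in the 6 arrays, and 147 to 194 with single arrays left out. The 812 after heat shock became 2356 with array weights, 343 in a fit of these 2 groups and 293 at an adjusted p under 0.01, and 367 to 1467 with single arrays left out. Over all probe sets single arrays left out gave 7344 to 10676 calls in Q7 cells, from 10864, and 14563 to 18581 in Q111 cells, from 18952. For the difference they gave 280 to 1352, from 1209. At 33 °C they gave 2163 to 2644, from 3054, and after heat shock 3935 to 8079, from 6932. With array weights all probe sets gave 18235 calls in Q7 cells, 3991 of a difference, 4283 at 33 °C and 14042 after heat shock. The actin gap left 567 in Q7 cells, 7349 in Q111 cells and 291 of a difference, and the repeat covariate 1228 in Q111 cells. At an adjusted p under 0.01 there were 6377, 11177, 171, 1870 and 3334, in the order of the contrasts above. Array weights were estimated gene by gene, since the default method did not converge. A replicate block over all 12 arrays gave 1243, 3785, 107, 204 and 919 calls, and one in the 6 Q111 arrays gave 3313. Over all probe sets these blocks gave 10938, 19342, 1169, 2923 and 7135 calls, and 15548. The block in the 6 arrays at 33 °C gave 6004. Without replicate 3 of both untreated groups 250 differences were called over all probe sets. The fit of the 2 heat-shocked groups called 3745. The repeat covariate, the form with a high replicate 3 at 33 °C, the omission of replicate 3 of both untreated groups and the block in 6 arrays were chosen after seeing the data.

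With the repeat covariate the median change turned to -0.17 in Q7 and -0.06 in Q111 cells, and its distance from probe sets naming 1 gene from 0.17 to -0.2 and from 0.43 to -0.11. In that fit 1457657_at turned to -0.95 in Q7 cells and -1.37 in Q111 cells, 1456693_at to -3.36, 1458243_at to -1.58 and 1447410_at to -2.79, none of them passing. The cause was not tested. With only probe sets above the bound in a group, the median in Q111 cells was 0.65 and the distance 0.9. With a bound of 4.61 the shares above it were 39.1%, 46.9%, 40% and 55.7% (Q7 and Q111 in the order untreated, heat-shocked), and with a bound 1 higher 15.9%, 18.1%, 16.1% and 24.5%. Centring moved the median of all probe sets by at most 0.05 and a further quantile normalization by at most 0.08. Of the 72 results for single probe sets 71 passed after centring, 72 with a variance trend, 70 with the replicate block over 12 arrays, 52 with the actin gap and 56 with the repeat covariate.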
